A study of Rattus norvegicus with 6 samples.

Results

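The cyclins, cyclin-dependent kinases and the kinase inhibitor p21 were described in RNA-seq of rat H9c2 cells, a line of embryonic rat heart myoblasts. The genes were taken by symbol from the table of gene counts: the D-type cyclins Ccnd1, Ccnd2 and Ccnd3, the E-type cyclins Ccne1 and Ccne2, cyclin A2 (Ccna2), cyclin B1 (Ccnb1), the kinases Cdk4 and Cdk6, and Cdkn1a, which encodes p21. All 10 had a row among the 16319 symbols of the table, and all 10 passed the filter on low counts, as did 12028 genes in all. The Nono-KO group held 3 libraries of H9c2 cells carrying a CRISPR/Cas9 knockout of Nono, an RNA- and DNA-binding protein of the paraspeckle, and the WT group held 3 libraries of wild type H9c2 cells. The knockout cells were made with the PX459 plasmid, which carries Cas9, the guide and puromycin resistance, pEGFP-N1 served as the control plasmid, and puromycin selected the stable cells. The scheme of the study shows the expansion of a single knockout clone, so the knockout and the history of that clone cannot be told apart, and p-values measure only the spread between libraries. The study grew its cells in logarithmic phase and describes no time course. It does not say whether the cells of the WT libraries were also given a plasmid or puromycin. Any effect of these steps therefore cannot be told apart from the knockout.

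In the textbook scheme of the cell cycle, growth signals raise D-type cyclins, which activate Cdk4 and Cdk6. These kinases phosphorylate the retinoblastoma protein Rb1 and release E2f factors, which switch on Ccne1, Ccne2 and Ccna2. Cyclin E with Cdk2 then drives entry into S phase, cyclin A2 acts in S and G2, and cyclin B1 with Cdk1 brings cells into mitosis. The inhibitor p21 is a p53 target that binds cyclin-Cdk complexes, and in the muscle lineage its gene is also switched on when myoblasts leave the cycle to differentiate.

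Primers for qPCR, read relative to Gapdh, were listed for 6 of the 10 genes, and the qPCR values were not analysed here. The primers are shown because they define which transcripts that assay read, in lower case from 5′ to 3′.
Cdk6 forward: ttcagatggcccttacctcg
Cdk6 reverse: gcaaagatgcagccaacact
Cdkn1a forward: ttgtcgctgtcttgcactct
Cdkn1a reverse: cttgcagaagaccaatcggc
Ccnd3 forward: ctcctacttccagtgcgtgc
Ccnd3 reverse: aggacaggtagcgatccagg
Ccne1 forward: gtcaacgacacgggagaagt
Ccne1 reverse: agcagcgaggacaccataag
Ccnb1 forward: gcctgagcctgaacctgtta
Ccnb1 reverse: tggatcaccaccatcgtctg
Ccna2 forward: ggatggtagttttgaatcacc
Ccna2 reverse: ttagtgatgtctggctgcctc

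Promoter windows of 250 bases before the annotated start were matched in RefSeq (build GRCr8) for 5 of the 10 genes, among 33469 windows of all genes. The windows of Cdk4, which rose, of Ccnb1, which fell, and of Cdkn1a, which rose, are shown because they hold motifs of factors known to act on these genes. GRCr8 is not the build the submitters name, and the windows were matched by symbol. Capitals mark CACGTG (the E-box bound by Myc proteins) in Cdk4, CCAAT (the box bound by NF-Y) and TTTAAA in Ccnb1, and a p53 decamer in Cdkn1a. The Cdkn1a stretch is cut to the 138 bases that lie before every annotated transcript of the gene.
Cdk4, chr7:64771203-64771452, plus strand: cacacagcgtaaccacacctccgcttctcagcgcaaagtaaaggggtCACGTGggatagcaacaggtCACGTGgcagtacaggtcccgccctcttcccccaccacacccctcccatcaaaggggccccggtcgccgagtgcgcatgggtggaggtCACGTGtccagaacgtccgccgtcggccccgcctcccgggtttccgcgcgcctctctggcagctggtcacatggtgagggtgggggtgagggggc
Ccnb1, chr2:33655226-33655475, minus strand: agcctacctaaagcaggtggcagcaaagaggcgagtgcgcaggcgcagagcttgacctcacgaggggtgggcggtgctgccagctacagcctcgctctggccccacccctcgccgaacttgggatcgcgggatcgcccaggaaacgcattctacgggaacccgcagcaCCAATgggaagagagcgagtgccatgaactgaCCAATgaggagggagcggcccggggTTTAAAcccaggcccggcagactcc
Cdkn1a, chr20:7150682-7150819, plus strand: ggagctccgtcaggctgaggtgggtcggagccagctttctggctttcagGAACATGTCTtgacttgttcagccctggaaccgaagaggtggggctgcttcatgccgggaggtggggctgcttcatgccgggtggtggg

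Both strands were searched for every motif, and no motif overlapped another in these windows. CACGTG occurred 3 times in the Cdk4 window, where 0.0508% of all windows hold at least 3 copies and 5.59% hold any. CCAAT occurred 2 times in the Ccnb1 window, a count that 9.42% of all windows reach. It also occurred 1 time in the window of Ccnd3, which rose, and 34% of all windows hold any copy. TTTAAA occurred once in Ccnb1 and in Ccne1, and in 12.3% of windows. The p53 decamer, searched after the sequence had been seen, occurred in the Cdkn1a window and in 6.64% of windows. TTTGAA, TTTCGCGC and TTTGGCGC had no match in the 5 windows, which says only that these letters are not there. A match is a description of the sequence and does not show binding.

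The 6 libraries held 17612958 to 18770188 counts in Nono-KO and 18138400 to 19253858 counts in WT cells. Nono itself, the target of the knockout, had 6.38, 5.23 and 5.08 CPM (counts relative to the library total, scaled by TMM) in Nono-KO cells, against 365, 315 and 307 CPM in WT cells. The groups separated on the first principal component, which held 88.7% of the variance, and the library WT 1 stood apart from WT 2 and WT 3 on the next, at 29.1 against -15.3 and -11.1. Of 12028 genes tested with edgeR, 34.2% were higher and 38.1% lower in Nono-KO cells at a Benjamini-Hochberg adjusted p under 0.05, which is what rose and fell mean here. When libraries were scaled to Gapdh, the reference gene of the qPCR, 29.0% of the called genes were higher, against 47.3% with TMM, and the median log2 fold change of all genes lay at -0.37, against -0.05 with TMM. Among skeletal muscle markers, Myog, which drives myoblast differentiation, averaged 106 ± 10.1 CPM in Nono-KO cells and 6.50 ± 1.63 CPM in WT cells (SD, n = 3 each). Of 5 such markers tested 4 rose, and the summed CPM of the 6 in the table ranged over 334 to 373 in Nono-KO cells and over 144 to 176 in WT cells. Myod1, a defining gene of myoblasts, had 161, 148 and 143 CPM in Nono-KO cells, against 113, 117 and 148 CPM in WT cells. Its log2 fold change of 0.26 did not pass (edgeR adjusted p = 0.0501), but did without WT 3 (0.00365) or Nono-KO 3 (0.0335). When scaled to Gapdh the log2 fold change of Myod1 was -0.06. Of 4 cardiac markers tested 1 rose, the transcription factor Nkx2-5, with 40.6 ± 2.48 CPM in Nono-KO cells and 20.9 ± 3.30 CPM in WT cells (SD, n = 3 each), while Tbx5, Nppa and Ryr2 had means between 0 and 0.0566 CPM in both groups. Gata4 had 18.7 ± 1.32 CPM in Nono-KO cells and 15.95 ± 1.18 CPM in WT cells (SD, n = 3 each). It did not pass (edgeR adjusted p = 0.0992), though its groups did not overlap. Myh6 and Tnni3 had means between 0.268 and 0.773 CPM in both groups. Tnnt2, a cardiac troponin, had 111, 135 and 137 CPM in Nono-KO cells, against 13.4, 78.0 and 83.0 CPM in WT cells, with WT 1 far under the others, and did not pass (edgeR adjusted p = 0.18, and 4.89e-05 without WT 1). Of 5 smooth muscle markers 4 rose. The endothelial markers Pecam1, Kdr and Tek and the fibroblast markers Pdgfra, Dcn and Lum had means between 0 and 0.288 CPM in both groups. The other endothelial marker in the table, Vwf, fell, with 0.846 ± 0.231 CPM in Nono-KO cells and 3.58 ± 0.811 CPM in WT cells (SD, n = 3 each). Col1a1, the type I collagen chain counted among the fibroblast markers, was abundant in both groups and fell by 0.47 on the log2 scale (edgeR adjusted p = 0.00129). Of 3 leukocyte markers 1 rose and 1 fell. Cd3e, a T cell receptor subunit, averaged 50.8 ± 1.65 CPM in Nono-KO cells and 6.00 ± 2.22 CPM in WT cells, and Csf1r, a receptor of macrophages, 1.04 ± 0.0808 CPM in Nono-KO cells and 3.79 ± 1.26 CPM in WT cells (SD, n = 3 each). The part of these markers in the values of the cyclins, kinases and p21 was not tested.

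Of the 10 genes, 4 rose in Nono-KO cells (Cdkn1a, Ccne1, Ccnd3 and Cdk4), where 34.2% of all tested genes rose. Another 5 fell (Cdk6, Ccna2, Ccnb1, Ccnd1 and Ccnd2), where 38.1% of all tested genes fell, and Ccne2 did not pass. The paralogs thus went opposite ways within the D-type cyclins and between Cdk4 and Cdk6. By the thresholds of the study for differentially expressed genes (DEGs), an adjusted p under 0.01 together with a log2 fold change beyond 1 in either direction, 3 were DEGs with higher and 4 with lower counts, where 10.8% of all tested genes were such DEGs with higher and 18.7% with lower counts. The 3 Nono-KO values lay all above the 3 WT values for 4 genes and all below them for 5 genes. Over all tested genes such groups without overlap occurred in 36.1% (higher) and 39.0% (lower). The median log2 fold change of the 10 genes was -0.49, against -0.05 over all tested genes. In bulk RNA, fewer cells in a phase of the cycle and less RNA per cell cannot be told apart.

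**Figure D1:**
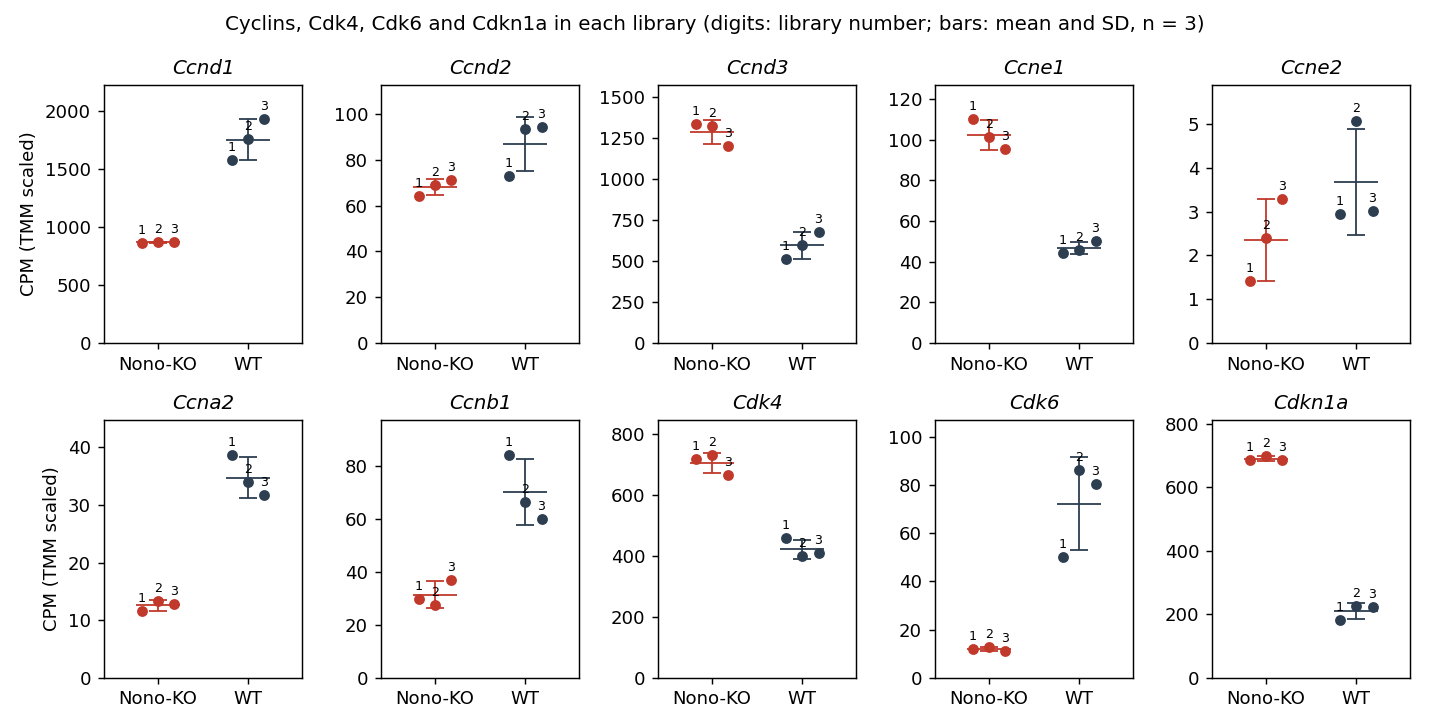
CPM (TMM scaled, linear axes from 0) of the 10 genes in each Nono-KO library (red, left) and each WT library (dark blue, right). Points carry the library number, and bars show the mean and SD of 3 libraries. The groups overlap only for Ccne2, and Cdk6 lies between 11.1 and 12.6 CPM in Nono-KO and between 50.2 and 86.2 CPM in WT cells.

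Ccnd1, the D-type cyclin best known as a sensor of growth factors, had 861, 868 and 874 CPM in Nono-KO cells, against 1578, 1759 and 1936 CPM in WT cells. All Nono-KO libraries lay within a narrow band well under the lowest WT library. The mean was 868 ± 6.27 CPM in Nono-KO cells and 1757 ± 179 CPM in WT cells (SD, n = 3 each), a log2 fold change of -1.02 (± 0.09, the standard error SE, edgeR adjusted p = 1.25e-06). It lay close to the limit for DEGs, and with the size factors of DESeq2 it was -0.97.

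Ccnd2, a D-type cyclin of proliferating muscle and other precursors, had 64.1, 69.2 and 71.1 CPM in Nono-KO cells, against 73.1, 93.6 and 94.2 CPM in WT cells. The groups did not overlap, but the lowest WT library, WT 1, lay just above the highest Nono-KO library. The log2 fold change was -0.35 (± 0.11 SE, edgeR adjusted p = 0.0120), and it lost significance without Nono-KO 1 (adjusted p = 0.0579).

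Ccnd3, the D-type cyclin that differentiating muscle cells are known to keep, had 1335, 1323 and 1199 CPM in Nono-KO cells, against 512, 597 and 674 CPM in WT cells. Every Nono-KO library was far above the highest WT library. The mean was 1286 ± 74.9 CPM in Nono-KO cells and 594 ± 81.3 CPM in WT cells (SD, n = 3 each), a log2 fold change of 1.11 (± 0.10 SE, edgeR adjusted p = 2.23e-06).

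Cdk4, a catalytic partner of the D-type cyclins, had 718, 729 and 666 CPM in Nono-KO cells, against 458, 398 and 407 CPM in WT cells. The groups were clearly apart. The log2 fold change of 0.74 (± 0.08 SE, edgeR adjusted p = 1.02e-05) was under the limit for DEGs.

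Cdk6, the other partner of the D-type cyclins, had 206, 227 and 209 counts in Nono-KO cells, against 1008, 1612 and 1446 counts in WT cells. In CPM this was 12.1, 12.6 and 11.1 in Nono-KO cells, against 50.2, 86.2 and 80.5 in WT cells. The Nono-KO libraries agreed closely, while WT 1 lay well under the other WT libraries and still far above all Nono-KO libraries. The log2 fold change of -2.60 (± 0.19 SE, edgeR adjusted p = 5.09e-07) was the largest of the 10 genes, a 6.06-fold lower level in Nono-KO cells, and 1.13% of all tested genes had a lower log2 fold change. Without WT 1 it was -2.81.

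Cdkn1a, the gene of p21, had 687, 700.3 and 685 CPM in Nono-KO cells, against 182, 226 and 224 CPM in WT cells. The Nono-KO libraries were nearly equal and all above the WT libraries. The mean was 691 ± 8.43 CPM in Nono-KO cells and 211 ± 24.7 CPM in WT cells (SD, n = 3 each), 3.28-fold higher in Nono-KO cells, with a log2 fold change of 1.71 (± 0.10 SE, edgeR adjusted p = 7.89e-08).

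Ccne1, which with Cdk2 starts DNA replication, had 110, 101 and 95.6 CPM in Nono-KO cells, against 44.3, 45.6 and 49.97 CPM in WT cells. Both groups were tight and far apart. The log2 fold change was 1.13 (± 0.09 SE, edgeR adjusted p = 9.66e-07). Ccne2, its paralog, had only 24, 43 and 62 counts in Nono-KO cells, against 59, 95 and 54 counts in WT cells. The highest Nono-KO library lay above WT 1 and WT 3, so the groups overlapped. The log2 fold change of -0.63 (± 0.32 SE) had an adjusted p of 0.0960 in edgeR, and with 1 library left out that p ran from 0.0373 without WT 1 to 0.368 without WT 2. It also passed without Nono-KO 3 (0.0410), and the log2 fold change shrank to -0.33 without WT 2 and -0.36 without Nono-KO 1 (adjusted p = 0.312).

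Ccna2, the cyclin of S phase and G2, had 11.5, 13.4 and 12.9 CPM in Nono-KO cells, against 38.7, 34.0 and 31.7 CPM in WT cells. The lowest WT library was well above every Nono-KO library, and the log2 fold change was -1.47 (± 0.12 SE, edgeR adjusted p = 9.90e-07). Ccnb1, the cyclin of mitotic entry, had 29.6, 27.6 and 37.1 CPM in Nono-KO cells, against 84.3, 66.4 and 60.1 CPM in WT cells. The groups stood apart here too, with an SD over mean of 15.87% in Nono-KO and 17.85% in WT libraries. Its log2 fold change was -1.16 (± 0.14 SE, edgeR adjusted p = 2.03e-05).

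**Figure D2:**
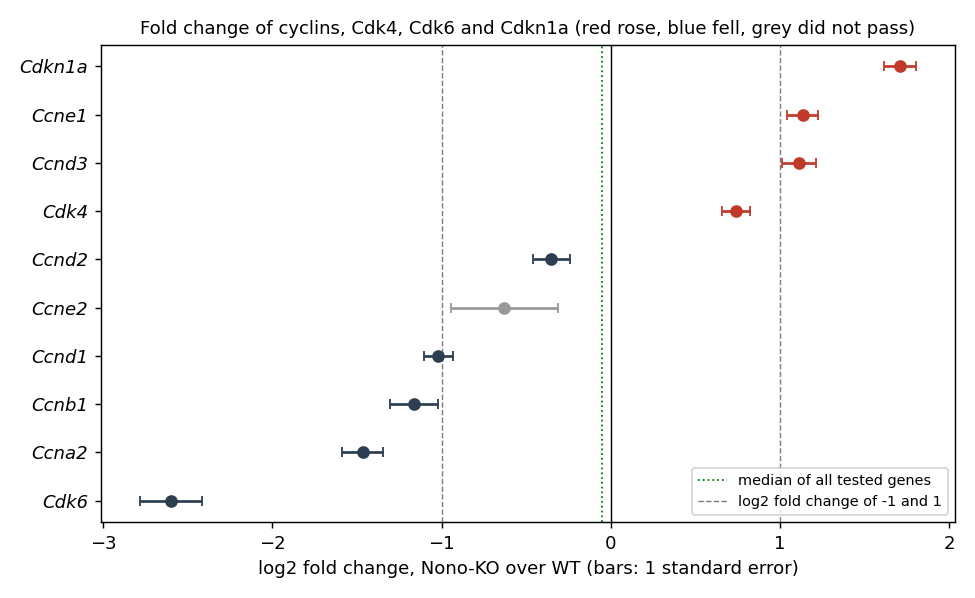
Log2 fold change of Nono-KO over WT from edgeR for the 10 genes, ordered by size, with bars of 1 standard error. Red points rose, blue points fell and the grey point did not pass, and the values run over -2.60 for Cdk6 to 1.71 for Cdkn1a, with dashed lines at -1 and 1 and a dotted line at the median of all tested genes.

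The library WT 1 was the lowest or the highest WT library for all 10 genes, lowest for 7 and highest for Ccna2, Ccnb1 and Cdk4. Over all tested genes WT 1 held such an end position in 75.7%. The relative spread (SD over mean) was smaller in Nono-KO than in WT libraries for 8 of the 10 genes and for 64.9% of all tested genes. Without WT 1, 4 of the 10 genes rose and 6 fell, with Ccne2 added. In that fit 4366 of all 12171 tested genes rose and 4761 fell.

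Ratios of counts within a library do not depend on how libraries are scaled, and 19 such ratios were compared by two-sided exact permutation tests, in which 3 against 3 libraries allow no p under 0.1. The log2 ratio of Ccnd1 to Ccnd3 was -0.63, -0.61 and -0.46 in Nono-KO cells, against 1.63, 1.56 and 1.52 in WT cells. The ratio thus had opposite signs in the groups, with a difference of -2.13 (exact permutation p = 0.1, adjusted 0.106). Counts were not divided by transcript length, so the sign does not rank these genes, and only the difference between the groups is read. The log2 ratio of Cdk4 to Cdk6 was 5.89, 5.85 and 5.91 in Nono-KO cells, against 3.19, 2.21 and 2.34 in WT cells, a difference of 3.30 (exact permutation p = 0.1, adjusted 0.106). Here WT 1 lay nearest to the Nono-KO libraries and still clearly under them. The ratio of Ccnd3 to Cdk6 differed by 3.68, of Ccne1 to Ccne2 by 1.80, of Cdkn1a to Ccnd3 by 0.60 and of Ccnd3 to Cdk4 by 0.38, each without overlap of the groups. The ratio of Ccnd2 to Ccnd3 differed by -1.47 and that of Ccnd1 to Ccnd2 by -0.67, also without overlap. The ratio of the S and M phase cyclins Ccna2 to Ccnb1 overlapped between the groups, with a difference of -0.30 (exact permutation p = 0.2).

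**Figure D3:**
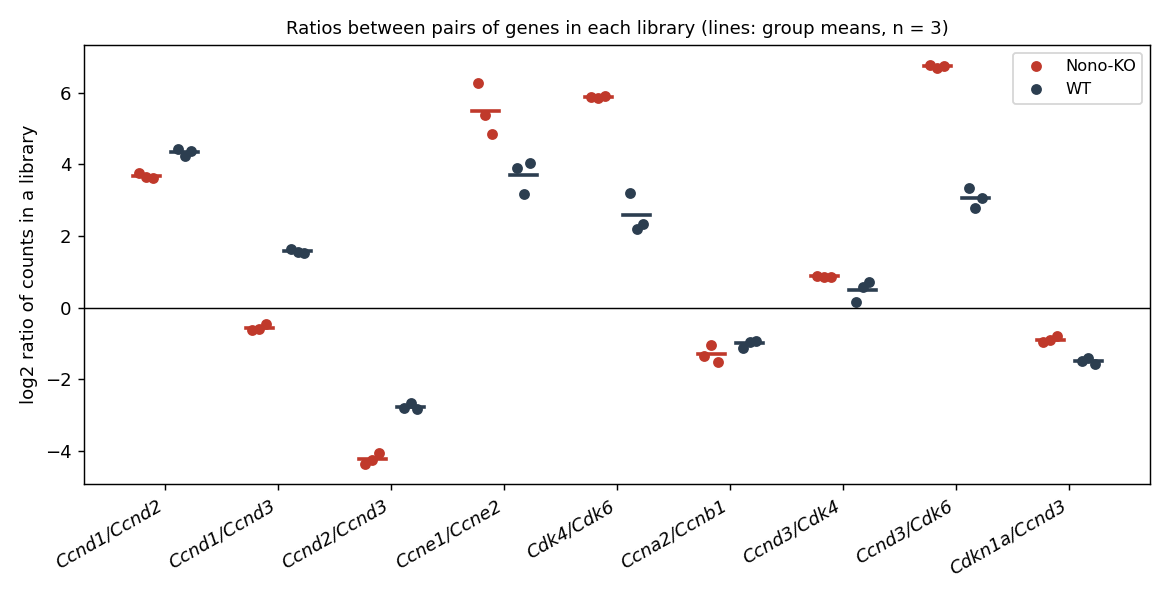
Log2 ratio of the counts of 2 genes within each Nono-KO library (red, left of each pair) and each WT library (dark blue, right), with lines at the means of 3 libraries. The groups are apart in 8 of the 9 ratios and overlap for Ccna2 to Ccnb1, and the ratio of Ccnd1 to Ccnd3 is under 0 in Nono-KO and over 0 in WT cells. Counts are not divided by transcript length, so the sign of a ratio does not rank its genes.

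Gapdh, the glycolytic enzyme used as the qPCR reference, rose, with 3805 ± 119 CPM in Nono-KO cells and 3040 ± 128 CPM in WT cells (SD, n = 3 each), a log2 fold change of 0.32 (± 0.07 SE, edgeR adjusted p = 0.00167). The count ratios to Gapdh therefore lie lower than the TMM-scaled changes. For the 6 genes with primers the difference of the log2 ratio to Gapdh, Nono-KO minus WT, was -2.89 for Cdk6, 1.39 for Cdkn1a, 0.80 for Ccnd3, 0.81 for Ccne1, -1.48 for Ccnb1 and -1.79 for Ccna2. For the others it was -1.34 for Ccnd1, -0.67 for Ccnd2, -0.99 for Ccne2 and 0.42 for Cdk4. No ratio to Gapdh overlapped between the groups, each with an exact permutation p of 0.1. These are ratios of sequencing counts and not the qPCR measurements.

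The other genes around these cyclins and kinases were counted in 12 lists, in which 41 of 188 tested genes rose and 104 fell. Scaled to Gapdh, 22 rose and 122 fell, where 2493 of all 12028 tested genes rose and 6108 fell. Over all tested genes 34.2% rose and 38.1% fell with TMM, and each list count below is to be read beside these shares. The other cyclins of the cell cycle were Ccnh (-1.34), part of the kinase that activates Cdks, Ccnc (-0.74) of the Mediator, Ccnf (-0.64), a ubiquitin ligase subunit, and Ccnb2. The first 3 fell, while the mitotic cyclin Ccnb2 had 27.2, 25.1 and 36.4 CPM in Nono-KO cells, against 49.95, 36.4 and 29.1 CPM in WT cells, with a log2 fold change of -0.38 (adjusted p = 0.0992, edgeR). Ccnc overlapped between the groups, and its call was lost without WT 2, Nono-KO 1 or Nono-KO 2 (adjusted p = 0.0548, 0.0544 and 0.0505). Ccnb2 passed when scaled to Gapdh (-0.71, adjusted p = 0.0141) and without WT 3 (-0.55, adjusted p = 0.0195), and was -0.15 without WT 1. Of 15 cyclins of transcription and other roles 1 rose and 10 fell, among them Ccnl1 (-1.59), Ccnyl1 (-1.52), Ccnj (-1.43) and Ccnt1 (-1.42), a partner of Cdk9 in transcript elongation.

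The kinases that pair with cyclins E, A and B gave other values than Cdk4 and Cdk6. Cdk1, the mitotic kinase, had 90.8, 76.4 and 102 CPM in Nono-KO cells, against 100.3, 87.2 and 70.6 CPM in WT cells, with a log2 fold change of 0.06 (± 0.14 SE, edgeR adjusted p = 0.703). Cdk2 had 42.0, 39.0 and 42.6 CPM in Nono-KO cells, against 50.1, 48.6 and 43.4 CPM in WT cells, with a log2 fold change of -0.20 (± 0.09 SE, edgeR adjusted p = 0.0724). Cdk1 overlapped between the groups and Cdk2 did not. Cdk2 passed by total counts (-0.26, adjusted p = 0.0436), when scaled to Gapdh (-0.53, adjusted p = 0.00126) and without WT 3 (-0.27, adjusted p = 0.0323). Of the 9 genes in that list 2 rose, Cdk2ap2 (0.82) and Cdk5rap3 (0.54), and 1 fell, Cdk2ap1 (-0.36). Among 17 other Cdks 4 rose and 8 fell, with Cdk18 (2.15) up, the transcription elongation kinases Cdk13 (-2.05) and Cdk12 (-1.94) and the Mediator kinase Cdk19 (-1.79) down.

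The 5 other Cdk inhibitors moved by less than Cdkn1a. Cdkn2d (0.84) and Cdkn2a (0.43) rose, and Cdkn2b (-0.52), Cdkn2c (-0.37) and Cdkn1b (-0.29) fell. The Cdkn2 genes encode the INK4 inhibitors, which bind Cdk4 and Cdk6 (Cdkn2a also encodes Arf), and Cdkn1b encodes p27, a relative of p21. Cdkn1b had 42.8, 48.3 and 58.2 CPM in Nono-KO cells, against 56.5, 67.1 and 58.9 CPM in WT cells. Its groups overlapped, and its call (adjusted p = 0.0465, edgeR) was lost in 7 alternatives, among them the size factors of DESeq2 (adjusted p = 0.0755) and leaving out Nono-KO 1 (0.217). Scaled to Gapdh, the call of Cdkn2a was lost as well (adjusted p = 0.261).

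Of 20 genes of the Rb and E2f family 3 rose and 14 fell, with a median of -0.64. The Rb relative Rbl1 (-1.79), the E2f genes E2f3 (-1.57) and E2f5 (-1.17) and Lin54 (-1.42), of the DREAM complex, fell most among those that reached 5 CPM in either group. Rb1, the substrate of Cdk4 and Cdk6, fell by 0.70 on the log2 scale (adjusted p = 0.0106), while E2f1 rose by 0.78 (adjusted p = 0.00038), with 71.5, 76.5 and 67.0 CPM in Nono-KO cells, against 52.0, 33.1 and 39.6 CPM in WT cells. Among 24 E2f targets of G1 and S phase 6 rose and 11 fell. The replication clamp Pcna (-1.21), the helicase subunit Mcm4 (-1.25), Orc1 (-0.94) and the histone mRNA binder Slbp (-0.93) fell, whereas another helicase subunit, Mcm5 (0.61), named after its value was seen, rose. Scaled to Gapdh, 0 of these targets rose and 16 fell, where 2493 of all 12028 tested genes rose and 6108 fell.

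Of 26 genes of G2 and M phase 1 rose and 19 fell, with a median of -0.87. The proliferation marker Mki67 (-1.91), the topoisomerase Top2a (-1.86), Cenpf (-1.67) of the kinetochore and the spindle checkpoint kinase Bub1 (-1.64) fell. The gene that rose was Cdc20 (0.33), an activator of the ligase that destroys cyclin B1, and no gene of the list rose when scaled by total counts or to Gapdh. The call of Cdc20 was also lost without WT 2, WT 3, Nono-KO 1 or Nono-KO 2 (adjusted p between 0.0642 and 0.116). Plk1, a mitotic kinase, had 135, 135 and 124 CPM in Nono-KO cells, against 163, 113 and 133 CPM in WT cells, and overlapped between the groups (log2 fold change -0.06, adjusted p = 0.693, edgeR). Cdc20 and Plk1 were named after their values were seen. Without WT 1, 3 genes of the list rose and 19 fell.

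Of 12 genes that set the phosphorylation of Cdks 0 rose and 8 fell. Wee1, the kinase that holds Cdk1 inactive, fell by 2.09, Cdc14b (-2.41) and Cdc14a (-1.02) are phosphatases, and Chek1 (-0.66) is a checkpoint kinase. Without WT 1, 3 genes of this list rose and 8 fell, and 2 rose and 8 fell with the size factors of DESeq2. Of 22 genes that carry out or control the destruction of cyclins and p21 11 rose and 9 fell. The list mixes activators and inhibitors of that destruction, so its counts give no direction for it. Cul1 (-1.31), Dtl (-1.24), which targets p21 to a ubiquitin ligase, Cdc27 (-1.16) and Gsk3b (-1.15), the kinase that marks cyclin D1 for export and degradation, were the largest changes. The median of that list was 0.04 with TMM and turned to -0.01 by total counts and to -0.28 when scaled to Gapdh.

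Of 21 other p53 targets 9 rose and 6 fell, with a median of 0.24, which turned to -0.08 when scaled to Gapdh. Sesn2 (1.503), a stress-induced inhibitor of mTORC1, Bax (1.42) and Fas (1.09), both of cell death, rose. Pmaip1 (-1.21), also of cell death, fell, as did Mdm2, the ligase that degrades p53, with 54.3, 47.3 and 68.3 CPM in Nono-KO cells, against 102, 135 and 107 CPM in WT cells (log2 fold change -1.01, adjusted p = 5.72e-05, edgeR). Genes of this list went both ways, as did all tested genes, of which 34.2% rose and 38.1% fell.

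Of 18 genes that carry growth signals to D-type cyclins 3 rose and 14 fell, with a median of -1.67. Hmga2, a chromatin protein of growing cells, fell by 3.96, the growth-induced factor Egr1 by 3.78 and the AP-1 subunit Fosl1 by 2.73 on the log2 scale. Myc, a factor known to recognise the CACGTG motif, had 7.72, 6.57 and 7.04 CPM in Nono-KO cells, against 63.3, 78.7 and 96.2 CPM in WT cells, a log2 fold change of -3.48 (± 0.16 SE, edgeR adjusted p = 2.40e-08). Mycn, a Myc paralog named after its value was seen, had 117, 112 and 126 CPM in Nono-KO cells, against 78.9, 89.1 and 83.7 CPM in WT cells, a log2 fold change of 0.49 whose call was lost when scaled to Gapdh (adjusted p = 0.123, edgeR). The 2 paralogs lay on opposite sides with TMM scaling, and Mycn was 0.17 when scaled to Gapdh.

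**Figure D4:**
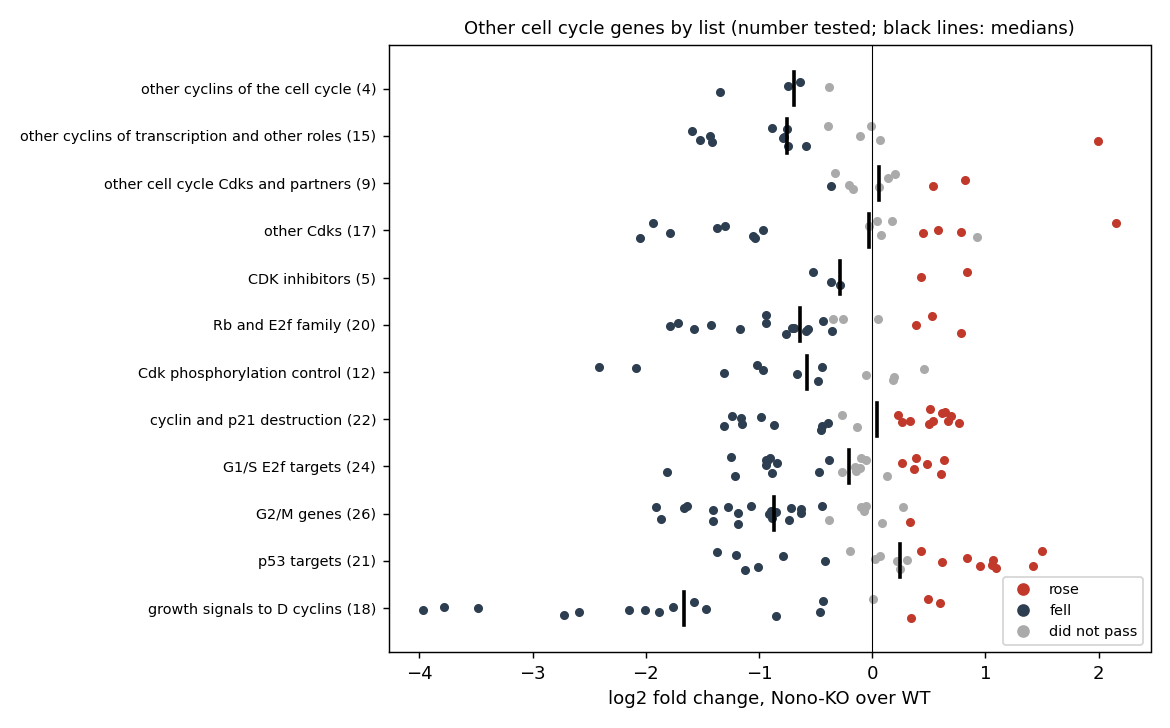
Log2 fold change of Nono-KO over WT from edgeR for each tested gene of the 12 lists, 1 list a row with its number of tested genes, red for genes that rose, dark blue for genes that fell and grey for genes that did not pass. Black lines are list medians, which run over -1.67 for the growth signals to 0.24 for the p53 targets.

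The genes most alike to each of the 10 in log2 CPM over the 6 libraries were found among 9100 genes of at least 5 CPM on average (9101 for Ccne2), as a description only, since the points fall into 2 groups and the highest of many coefficients was taken. Cdkn1a was followed by Adprhl1 (Pearson r = 0.9998) and Myog (0.9996), Cdk6 by Gdap2 (0.9999) and Nr3c1 (0.9995), and Cdk4 by B9d2 (0.9999) and Tango2 (0.9997). Ccnd3 was followed by Krt7 and Il11ra1 (both 0.9998), Ccnd1 by Cpsf7 and Samd8 (both 0.9995), and Ccnd2 by Dnajc21 (0.9971) and Tll1 (0.9917). Ccne1 lay closest to Sh3glb2 (0.9993) and Haghl (0.999), Ccna2 to Psat1 (0.9989) and Cenpn (0.9976), Ccnb1 to Dsn1 (0.9981) among the genes reported here, and Ccne2 to Rap1a (0.9948) and Ssb (0.9812). Myog rose by 4.03 and Nr3c1, the glucocorticoid receptor, fell by 2.50 on the log2 scale.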

How the data were processed

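The authors deposited raw counts per gene symbol for each library, with no scaling. Per the labels, reads were processed with Trimmomatic, HISAT2 and HTSeq on mRatBN7.2, with no versions, whereas the methods of the study name Bowtie2 and an older build. The annotation and strand setting were not given in the sources used here, so reads of paralogs or overlapping genes may have been split or dropped. Libraries were assigned to groups by their labels. Counts were tested in R 4.3.3 with the quasi-likelihood test of edgeR 4.0.16 (robust dispersions, TMM, default filterByExpr, adjustment over all 12028 tested genes of 16319), which was also run on simulated data. The simulation changed only 200 genes, as many up as down. It therefore does not test the scaling where most genes differ, as here. Fold changes are Nono-KO over WT, and a standard error is the absolute log2 fold change over the square root of F. Ratios had 0.5 added to each count. Totals of 17612958 to 19253858 counts leave genes with a few counts, such as Ccne2, imprecise.

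The members and lists were chosen with earlier results of these data known. The genes named were all members, up to 4 genes of each list with the largest change that passed at 0.05 and reached 5 CPM in either group, and Nono, Gapdh, Cdk1, Cdk2, Ccnb2, Cdkn1b, Cdkn2a, Rb1, E2f1 and Mdm2. Other genes were named after their values were seen. The alternatives were DESeq2 1.42.0, its size factors, total counts, scaling to Gapdh, other filters, dispersions without robust estimation, the replicate number as a block, another threshold, 1 count added to ratios, and leaving out each library. Marker genes with no row are not analysed here, nor are qPCR values and protein sequences. The values of some single genes are left out.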

Additional observations from a re-analysis of the deposited data

How the results depend on the processing

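The 10 genes were refitted under 14 alternatives each, and of 140 refits 135 kept direction and call, 1 lost the call, 4 gained it and 0 reversed. Ccnd2 lost the call without Nono-KO 1, with a log2 fold change of -0.30, and its values with 1 library left out ran from -0.47 to -0.30. Ccne2 passed when scaled to Gapdh (-0.95) and with the replicate block (-0.65, adjusted p = 0.0446, edgeR), and without WT 1 (-0.77) or Nono-KO 3 (-0.91). Its values with 1 library left out ran from -0.91 to -0.33. Deviations from the group means had r = 0.05, -0.17 and -0.19 between libraries with the same number. With 3 libraries a group these values cannot decide whether the numbers pair the libraries. The replicate block gave 3944 genes higher and 4443 lower, against 4108 and 4578 without it, and changed no other call of the 10 genes.

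Scaling to Gapdh moved the count of genes higher to 2493 and of higher DEGs to 785, against 1294 with TMM, and moved the list genes that rose to 22, since it shifts all genes down. Under it Ccnd3 (0.79) and Ccne1 (0.81) were under the fold limit for DEGs. Of 133 alternatives for the ratios 0 reversed. Among 979 refits of other named genes 941 kept direction and call, 19 lost the call, 13 gained it and 6 reversed, none of a called gene. Cdk1 did so when scaled to Gapdh (-0.268), without WT 3 (-0.0691) and without Nono-KO 3 (-0.0104), and ran from -0.0691 to 0.18 with 1 library left out. Myod1 did so when scaled to Gapdh (-0.0624). Plk1 did so without WT 1 (0.0896) and Nono-KO 3 (0.0177), and ran from -0.182 to 0.0896. The causes were not tested. Ccne2 had the fewest counts of the 10 genes, 24 to 95 a library.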
